A study of Arabidopsis thaliana with 16 samples.

Results

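Khib levels of genes were compared between Arabidopsis thaliana seedlings of the hda6 mutant and of the hda9 mutant, directly and without the wild type. Khib is lysine 2-hydroxyisobutyrylation, an acyl group on histone lysines that lies over transcribed genes. The genes compared were those whose end minus start was at least 1000 bp and whose RPKM (reads per kilobase of gene, scaled to the depth of the library) was at least 1 in both mutants. These were 22879 of the 32548 genes listed. Of the rest, 9077 genes were shorter and 592 were under 1 RPKM: 399 only in hda6, 9 only in hda9 and 184 in both. The measure was the log2 ratio of (RPKM + 1), hda6 over hda9, minus its median over these genes, called the centred log2 ratio below.

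The hda6 seedlings carry an EMS-induced allele of HDA6 and the hda9 seedlings a T-DNA insertion in HDA9, per the labels, which do not name the alleles. Context comes from 2 further genotypes, the quadruple mutant sant-null and the wild type Col-0. All were untreated whole seedlings of 12 days, from plates at 22 °C with 16 h light and 8 h dark, and were fixed with 1% formaldehyde for 15 min. Each genotype had 2 ChIP and 2 input libraries, but the tables hold 1 Khib value per gene and genotype. So no difference has a replicate check, no test across samples was possible, and intervals cover counting error only.

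HDA6 and HDA9 are class I histone deacetylases of the RPD3 type, enzymes that remove acyl groups from histone tails. HDA6 is known for silencing of repeats and transgenes and for roles in flowering, jasmonate and stress responses. HDA9 is known to act with the SANT-domain protein PWR in flowering, leaf senescence and seed development.

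The recovered depth was 16.8 M reads in hda6 and 38.8 M in hda9, with 12.0 M in sant-null and 18.6 M in Col-0. A single read on 1 kb of gene corresponded to 0.0597 RPKM in hda6 and 0.0258 RPKM in hda9, and the median gene had 315 reads in hda6 and 814 in hda9. The HDA6 gene had 12.0 RPKM in hda6, 10.9 in hda9, 11.7 in sant-null and 11.8 in Col-0. The HDA9 gene had 2.497 RPKM in hda6, 6.10 in hda9, 2.89 in sant-null and 2.33 in Col-0. A histone mark over a gene does not show whether its product is made, so these values check neither mutant.

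Khib was spread over a wider range of levels in hda6 than in hda9. The median gene had 7.35 RPKM in hda6 and 8.85 RPKM in hda9. The lowest 5% of genes lay under 1.85 RPKM in hda6 and under 4.28 RPKM in hda9, and the highest 5% lay over 23.8 RPKM in hda6 and over 15.4 RPKM in hda9. The ratio of these bounds was 12.8 in hda6 and 3.60 in hda9, beside 8.15 in sant-null and 11.9 in Col-0. Genes under 3 RPKM numbered 3054 (13.3%) in hda6 and 323 (1.41%) in hda9, and genes over 20 RPKM numbered 1872 (8.18%) in hda6 and 219 (0.957%) in hda9. Both ends of the scale were thus thinner in hda9, and the hda6 range was close to that of Col-0.

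**Figure D1:**
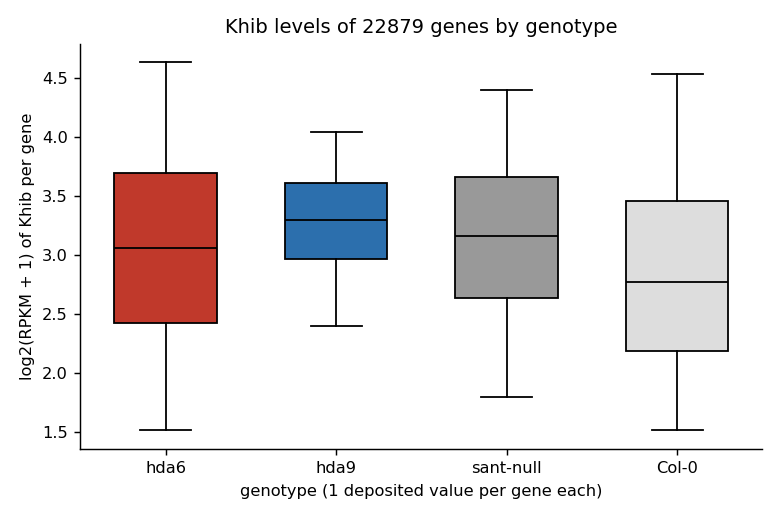
Khib level of the 22879 genes in hda6, hda9, sant-null and Col-0 as log2(RPKM + 1), with the box from the lower to the upper quartile, the line at the median and whiskers to the 5th and 95th percentiles. The hda9 box and whiskers are the shortest, with RPKM bounds of 4.28 and 15.4 against 1.85 and 23.8 in hda6.

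The same contrast appeared when genes were ranked by their Col-0 level, which does not enter the ratio. In the lowest decile, the median was 1.93 RPKM in hda6 and 4.95 RPKM in hda9, a centred log2 ratio of -0.77. In the highest decile, it was 23.7 RPKM in hda6 and 14.8 RPKM in hda9, a centred log2 ratio of 0.89. In the decile just above the median of Col-0 the mutants were close, at 8.10 RPKM in hda6 and 9.30 RPKM in hda9. Ranking by sant-null level gave -0.67 in the lowest and 0.83 in the highest decile. Across the 22879 genes, the rank correlation of the centred ratio with Col-0 RPKM was 0.85 and with sant-null RPKM 0.70, as a description of genes that share libraries and are not replicates.

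**Figure D2:**
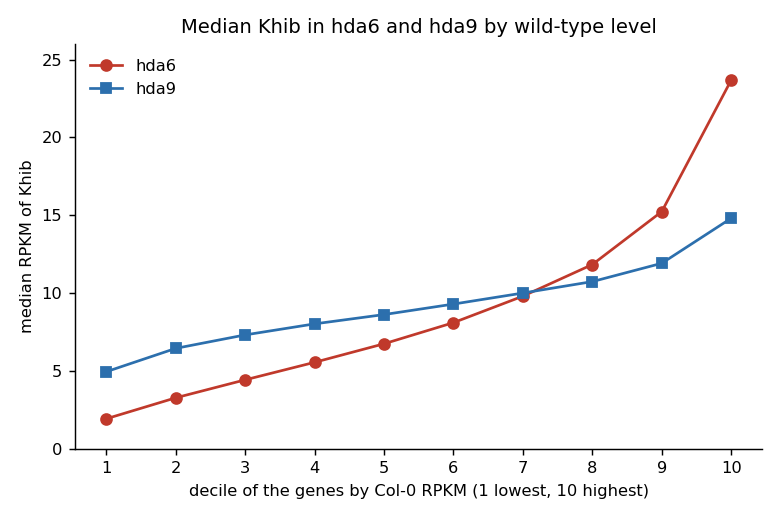
Median Khib RPKM of hda6 and hda9 (vertical axis) in deciles of the genes ordered by Col-0 RPKM (horizontal axis). The hda6 line lies under the hda9 line in the lowest decile (1.93 against 4.95 RPKM) and over it in the highest (23.7 against 14.8 RPKM).

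At a fold of 1.5 on the centred scale, 3782 genes were higher in hda6 (16.5%) and 3839 were lower in hda6 (16.8%). At a fold of 2, 920 were higher (4.02%) and 1116 lower (4.88%). Centring matters to this split, because the median log2 ratio before it was -0.20: without centring, 2142 genes were higher and 5990 lower, and RPKM itself was higher in hda6 at 8555 genes (37.4%). The genes higher in hda6 had medians of 19.3 RPKM in hda6, 12.2 in hda9, 15.8 in sant-null and 17.1 in Col-0. The genes lower in hda6 had medians of 2.76 RPKM in hda6, 6.999 in hda9, 4.23 in sant-null and 2.56 in Col-0. On both sides hda6 lay nearer to Col-0 than hda9 did, with sant-null between the mutants.

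Because the ratio followed level, a second measure was formed by subtracting the running median of the ratio over genes ranked by mean level. Its SD across genes was 0.38, against 0.59 for the centred ratio. On this trend-removed scale 1592 genes were at least 1.5-fold higher in hda6 (6.96%) and 1082 lower (4.73%). Of the 3782 genes higher on the centred scale, 753 (19.9%) were also higher on this one, and of the 3839 lower ones, 888 (23.1%) were also lower. Just inside the 1.5-fold line stood VIM2 and emb2386 on the higher side and PHL1 and EMB3142 on the lower, and just outside it RD21A and PAF2, and GPK1 and DPD1.

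**Figure D3:**
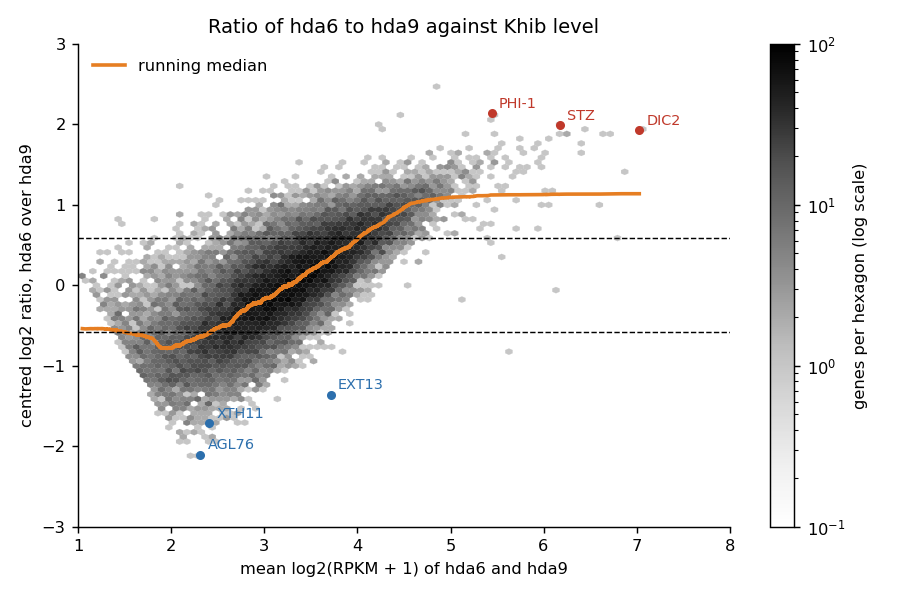
Centred log2 ratio of hda6 over hda9 (vertical axis) against the mean log2(RPKM + 1) of both mutants (horizontal axis), as a density of genes with the running median and dashed lines at 1.5-fold (genes above a mean of 8 are not drawn). The running median climbs with level, and STZ, DIC2 and PHI-1 lie above it while AGL76, XTH11 and EXT13 lie below it.

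Among protein-coding genes with a symbol, the 12 highest centred ratios belonged to genes with 80.0 to 237 RPKM in hda6 and 21.2 to 70.6 RPKM in hda9. Of these 12, STZ, DIC2 and ERF4 were in the list of rapid stress regulators and LHB1B2 and CAB1 in that of photosynthesis, while the others were in no list. PHI-1 (chromosome 1, 12851983 to 12853235, TAIR10), of the EXORDIUM family of phosphate-induced genes, had 84.4 RPKM in hda6, 21.2 in hda9, 77.9 in sant-null and 51.8 in Col-0. That is a 3.98-fold difference in RPKM itself (95% counting interval 3.69 to 4.30, 1772 reads in hda6 and 1030 in hda9). The centred log2 ratio was 2.14. Folds given with an interval, here and below, have neither the added 1 RPKM nor the centring of that ratio. STZ (chromosome 1, 9648021 to 9649323), a zinc-finger repressor of the cold and salt response, had 134 RPKM in hda6 and 37.9 in hda9, a 3.54-fold difference (3.34 to 3.75). The other genotypes were near hda6 at STZ, with 124 RPKM in sant-null and 132 in Col-0.

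DIC2, a mitochondrial dicarboxylate carrier, had 237 RPKM in hda6 and 70.6 RPKM in hda9. ERF4, a repressor of ethylene-responsive genes, had 194 RPKM in hda6 and 58.8 RPKM in hda9. SYP122, a plasma membrane syntaxin, had 80.4 RPKM in hda6 and 24.4 RPKM in hda9. Their centred ratios were 1.93, 1.90 and 1.88 in this order. CAF1a, a deadenylase of messenger RNA (1.85), PUB23, a ubiquitin ligase that dampens immune signalling (1.75), and SRC2, EXL2, HSPRO2, LHB1B2 and CAB1 completed the 12. Each of the 12 stayed above 0.60 on the trend-removed scale, where PHI-1 was highest at 1.02. The running median is flat at these highest levels, so part of the trend on level may remain in these values.

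At the other end, the 12 lowest centred ratios belonged to genes with 1.03 to 2.25 RPKM in hda6 and 5.73 to 10.7 RPKM in hda9. The filter bounds this end, since the 399 genes under 1 RPKM only in hda6 were not ranked. AGL76 (chromosome 5, 16051879 to 16053036), a MADS-box gene, had 1.24 RPKM in hda6, 10.02 in hda9, 3.53 in sant-null and 3.30 in Col-0. It rested on 24 reads in hda6 and 450 in hda9, a fold of 0.123 (0.0783 to 0.186) and a centred log2 ratio of -2.11. CNGC19 (chromosome 3, 6045002 to 6048529), a cyclic nucleotide-gated calcium channel, had 1.66 RPKM in hda6, 8.83 in hda9, 4.04 in sant-null and 2.41 in Col-0. With 98 reads in hda6 and 1208 in hda9, its fold was 0.188 (0.151 to 0.231). In both genes hda9 stood above the other 3 genotypes. The same held for the medians of all genes with 1 to 2 RPKM in hda6. These were 1.54 RPKM in hda6, 4.49 in hda9, 2.12 in sant-null and 1.71 in Col-0.

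XTH11, a xyloglucan-modifying enzyme of the cell wall (-1.71), PUP3 (-1.68) and PUP8 (-1.54), purine permeases, and GAUT2, of the galacturonosyltransferase family (-1.67), followed. NRPD4, a subunit shared by RNA polymerases IV and V, had 1.16 RPKM in hda6 and 6.67 RPKM in hda9, a centred log2 ratio of -1.64. SON1, an F-box gene of defence, CBL6, a calcium sensor, the plastid ribosome gene PSRP3/1, TTN9 and TBL31 made up the rest, between -1.65 and -1.53.

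On the trend-removed scale other genes led. EXT13 (chromosome 5, 13434151 to 13435424), an extensin of the cell wall, had 6.65 RPKM in hda6, 21.5 in hda9, 14.7 in sant-null and 5.66 in Col-0. Its trend-removed log2 ratio was -1.70, on 142 reads in hda6 and 1061 in hda9. AGL76 (-1.47), FOA1, an F-box gene of abscisic acid signalling (-1.32), ATAB2 (-1.19), GAUT2 (-1.19) and PUP3 (-1.18) were next. On the higher side MSP2 had 6.67 RPKM in hda6 and 3.25 RPKM in hda9, a trend-removed ratio of 1.57. GRP3S, coding for a small glycine-rich protein, had 15.7 RPKM in hda6 and 5.45 RPKM in hda9 (1.49), followed by AGP41 (1.30), RTFL8 (1.29), PHOS32 (1.29) and the calmodulin gene CAM7 (1.29). These 6 genes had 5.91 to 15.7 RPKM in hda6 and 3.25 to 5.45 RPKM in hda9. Each had more in hda6 than in Col-0, as the median gene did (7.35 RPKM in hda6 and 5.84 in Col-0). Each also had less in hda9 than in Col-0, while the median gene had more (8.85 RPKM in hda9). The pick for a high ratio of hda6 over hda9 itself favours genes low in hda9. At GRP3S, Col-0 had 15.5 RPKM, close to hda6 and far above hda9.

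Photosynthesis genes were the list with the highest median. Of 31 listed genes, 29 met the criteria and 25 were at least 1.5-fold higher in hda6, none lower, against 16.5% and 16.8% of all genes. Their median was 29.0 RPKM in hda6 and 16.3 RPKM in hda9, and the median centred ratio 1.09. LHB1B2, an antenna protein of photosystem II, had 134 RPKM in hda6, 41.7 in hda9, 99.4 in sant-null and 169 in Col-0, a centred ratio of 1.86. CAB1, a further antenna gene, had 104 RPKM in hda6 and 35.1 RPKM in hda9 (1.73). PETC, the Rieske protein of the cytochrome b6f complex, was near 0 with 9.80 RPKM in hda6 and 10.7 RPKM in hda9 (0.08, and -0.11 with the trend removed), as was the antenna gene LHCB5 on the centred scale (0.11, and -0.36 with the trend removed). Antenna and small Rubisco subunit genes are near-identical copies, so reads may be split between neighbours such as CAB1, CAB2 and CAB3. With the trend on level removed, the list's median was 0.16 and 3 genes were higher.

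Rapid stress regulators came next, with 16 of 22 genes higher in hda6 and 1 lower, beside 16.5% and 16.8% of all genes. Their medians were 31.5 RPKM in hda6, 17.2 in hda9 and 25.7 in Col-0. In the highest decile of all genes by Col-0 level, which starts at 16.5 RPKM, 87.8% of genes were higher. CBF1, an activator of the cold response, had 54.0 RPKM in hda6 and 24.3 RPKM in hda9 (1.31). WRKY40, a transcription factor of defence, had 41.1 RPKM in hda6 and 16.6 RPKM in hda9 (1.46). WRKY46, of the same family, stood on the other side with 2.74 RPKM in hda6, 7.68 in hda9, 7.17 in sant-null and 2.64 in Col-0 (-1.02). The list's median was 0.95, and 0.11 with the trend removed, where 3 genes were higher and none lower.

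Abscisic acid, dehydration and cold genes had 13 of 23 members higher in hda6 and 1 lower, beside 16.5% and 16.8% of all genes. Their median was 0.68. COR47, a cold-induced dehydrin, had 38.5 RPKM in hda6 and 14.1 RPKM in hda9 (1.58). ERD14, a second dehydrin, had 41.8 RPKM in hda6 and 20.1 RPKM in hda9 (1.21). OST1, the kinase that closes stomata on abscisic acid, had 1.53 RPKM in hda6 and 4.99 RPKM in hda9 (-1.05).

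Seed and embryo genes, which seedlings are known to keep silent, had 11 of 17 members higher in hda6 and 1 lower. Their median was 0.75, and the shares of all genes were 16.5% and 16.8%. CRU2, a seed storage globulin, had 22.7 RPKM in hda6 and 12.9 RPKM in hda9 (0.97). LEC1, a regulator of embryo identity, had 12.7 RPKM in hda6 and 7.47 RPKM in hda9, while FUS3, which acts with it, had 2.703 RPKM in hda6 and 5.54 RPKM in hda9. The centred ratio was 0.89 at LEC1 and -0.62 at FUS3, and with the trend removed 0.76 at LEC1 and 0.01 at FUS3. With the trend on level removed the medians were 0.09 for the abscisic acid list and 0.12 for the seed list. Each of these lists then had 2 genes higher and none lower.

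Jasmonate and defence genes had 7 of 18 members higher in hda6 and none lower, beside 16.5% and 16.8% of all genes. Their median was 0.48, and 0.22 with the trend removed. MYC2, the master regulator of jasmonate responses, had 42.3 RPKM in hda6 and 22.6 RPKM in hda9 (1.07), but -0.02 with the trend removed. EDS1, a hub of immune signalling, had 5.15 RPKM in hda6 and 9.25 RPKM in hda9 (-0.54). Housekeeping genes were between, with 8 of 25 higher and 1 lower and a median of 0.44, and 2 higher, none lower and a median of 0.13 with the trend removed. UBQ10, a polyubiquitin gene, had 102 RPKM in hda6 and 38.5 RPKM in hda9 (1.57, and 0.45 with the trend removed).

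Heat genes had shares of higher and lower members not far from the 16.5% and 16.8% of all genes. Of 21 heat shock factor genes 5 were higher in hda6 and 3 lower, with a median of 0.18, which was -0.01 without centring. HSF4 had 24.5 RPKM in hda6 and 13.2 RPKM in hda9 (1.04), while HSFA6A had 1.84 RPKM in hda6 and 6.82 RPKM in hda9 (-1.27) and HSFA6B 1.45 RPKM in hda6 and 5.19 RPKM in hda9 (-1.14). Of 28 heat shock protein and chaperone genes 4 were higher and 3 lower, with a median of 0.17, against -0.03 without centring and -0.21 with the trend removed. HSP90.1, the heat-induced cytosolic chaperone, had 4.68 RPKM in hda6, 12.5 in hda9, 9.49 in sant-null and 3.78 in Col-0 (-1.06, and -0.97 with the trend removed). HSC70-1, a constitutive chaperone, had 28.8 RPKM in hda6 and 18.6 RPKM in hda9 (0.80, but -0.22 with the trend removed). Only 8 of 16 small heat shock protein genes were long enough, with 1 higher and none lower.

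Floral organ regulators were low in hda6 and also low in hda9. The 14 floral organ MADS genes, which specify organ identity, had none higher and none lower and a median of -0.15, but 0.50 with the trend removed and 0.44 after quantile normalization. AG, which specifies stamens and carpels, had 2.26 RPKM in hda6, 2.45 in hda9, 2.10 in sant-null and 2.04 in Col-0. AP1, which specifies floral meristems, had 3.14 RPKM in hda6, 3.24 in hda9, 2.9997 in sant-null and 3.08 in Col-0. SHP2, the gene with the lowest centred ratio of this list, had 1.94 RPKM in hda6 and 3.10 RPKM in hda9 (-0.28, but 0.38 with the trend removed). Both AG and AP1 thus differed little between the 4 genotypes, but they were the only 2 of the 14 with a centred ratio above 0. No member of the list had more RPKM in hda6 than in hda9. The list's medians were 2.26 RPKM in hda6 and 3.17 RPKM in hda9.

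Of all genes under 3 RPKM in hda6, 45.1% were also under 5 RPKM in hda9, where their median was 5.20 RPKM. All 9 floral organ MADS genes under 3 RPKM in hda6 were under 5 RPKM in hda9, with a median of 2.64 RPKM there. The same held for the 5 flowering time genes of that range, whose hda9 median was 2.73 RPKM. In other lists, both small heat shock protein genes of that range, both senescence genes and the 1 abscisic acid gene were also under 5 RPKM in hda9. So were 4 of 6 auxin genes, 1 of 2 histone genes, 1 of 3 deacetylase and partner genes and 1 of 3 ribosomal protein genes. Neither of the 2 heat shock factor genes was, nor the 1 gene each of the rapid stress, seed and clock lists. These are counts over small lists chosen with results known, and no test was made of them.

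Over the whole flowering time list, 28 of 30 genes met the criteria, 2 were higher and 1 lower on the centred scale, and 9 were higher and none lower with the trend removed, beside 6.96% of all genes. FT, the mobile flowering signal, had 3.9998 RPKM in hda6, 3.08 in hda9, 3.33 in sant-null and 4.38 in Col-0, a centred ratio of 0.49 and a trend-removed one of 1.18. SVP, a repressor of FT, had 4.31 RPKM in hda6 and 3.51 RPKM in hda9 (0.43 centred and 1.07 trend-removed). FLC, the vernalization-controlled repressor, had 3.15 RPKM in hda6 and 3.91 RPKM in hda9 (-0.05 and 0.65). LFY, a floral meristem regulator, was higher in hda6, with 16.9 RPKM in hda6 and 10.9 RPKM in hda9 (0.79), and SPL4 was lower, with 3.68 RPKM in hda6 and 7.11 RPKM in hda9 (-0.60).

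**Figure D4:**
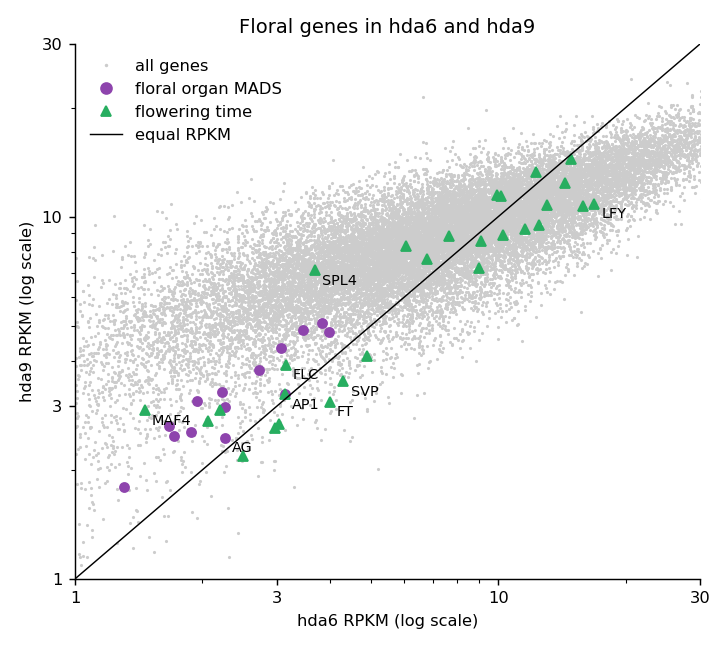
Khib RPKM in hda6 (horizontal axis, log scale) and hda9 (vertical axis, log scale) for all genes in grey, floral organ MADS genes as circles and flowering time genes as triangles, with the line of equal RPKM. At the low end the floral genes lie nearer to that line than most grey points. AG, among the 2 floral organ MADS genes with a centred ratio above 0, has 2.26 RPKM in hda6 and 2.45 in hda9. The medians of that list are 2.26 RPKM in hda6 and 3.17 in hda9.

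Auxin response genes had 2 of 24 members higher, 4 lower and a median of 0.06 on the centred scale (-0.14 without centring), beside 16.5% and 16.8% of all genes. With the trend removed 9 were higher and none lower (median 0.35), beside 6.96% and 4.73% of all genes. IAA16, an auxin repressor protein, had 11.9 RPKM in hda6 and 6.04 RPKM in hda9, 1.07 on both scales. SHY2, of the same family, had 1.28 RPKM in hda6 and 3.73 RPKM in hda9 (-0.86). IAA28, a further member, had 2.71 RPKM in hda6 and 2.61 RPKM in hda9 (0.24, and 1.00 with the trend removed).

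**Figure D5:**
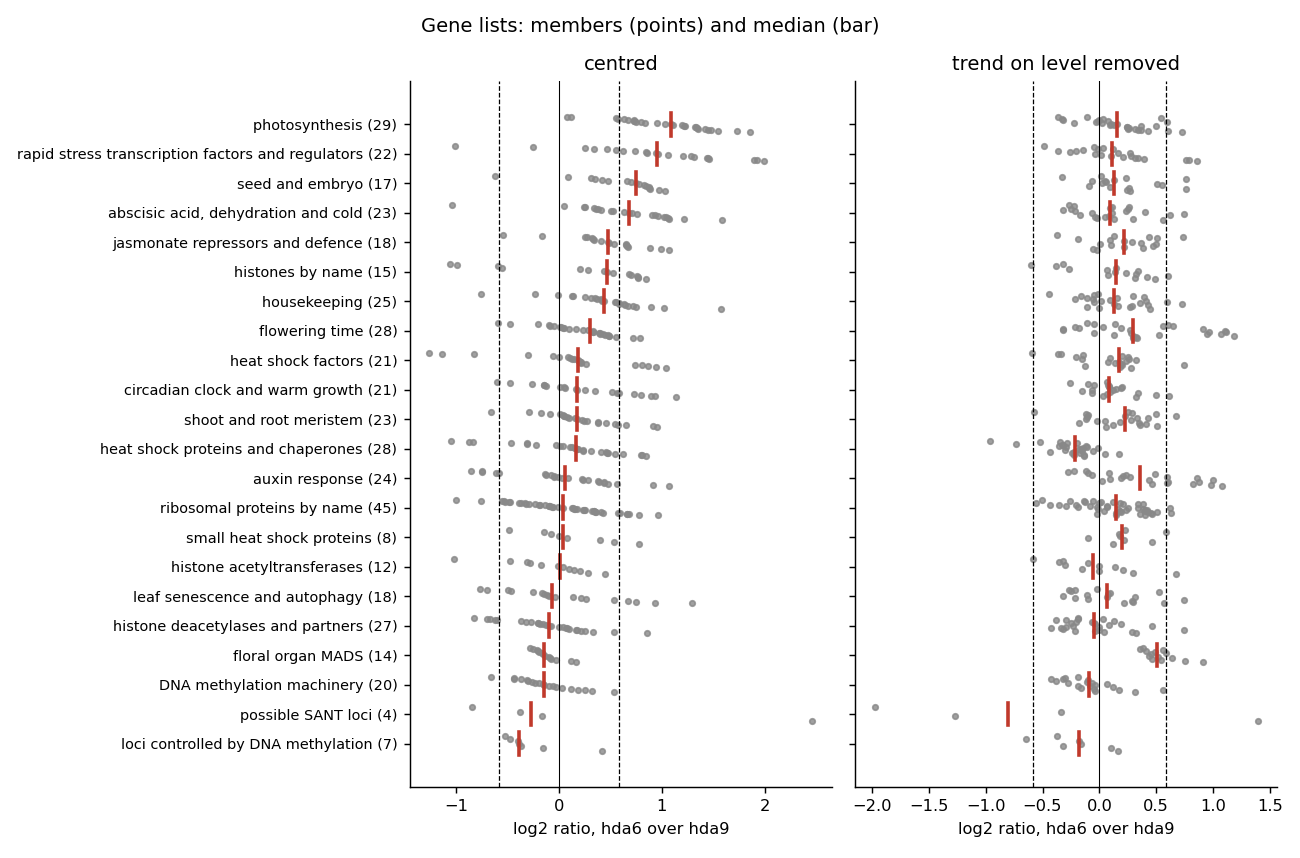
Log2 ratio of hda6 over hda9 (horizontal axes) for the members (points) and medians (bars) of 22 gene lists, with the number of genes in parentheses and dashed lines at 1.5-fold. On the centred scale (left) photosynthesis leads with a median of 1.09, and with the trend on level removed (right) its median is 0.16 while that of floral organ MADS genes is 0.50.

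The genes of the deacetylases and their partners had 1 of 27 higher in hda6 and 5 lower, beside 16.5% and 16.8% of all genes, with a median of -0.10. The share of lower genes was thus near that of all genes, and with the trend removed 1 was higher and none lower. HDA08 was the higher one, with 18.5 RPKM in hda6 and 11.3 RPKM in hda9 (0.86). The lower ones were HDA9 (-0.83), the corepressor gene SNL5 (-0.70), the sirtuin gene SRT1 (-0.67, but 0.03 with the trend removed), HDA3 (-0.62) and HDA2 (-0.60). HDA6 itself had a centred ratio of 0.33 and PWR (AT3G52250), the HDA9 partner, -0.10.

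Of 4 loci taken here as candidates for the genes mutated in sant-null, which the labels do not name, AT1G55050 (chromosome 1, 20541837 to 20545861) had the highest centred ratio of all 22879 genes. It had 63.0 RPKM in hda6, 12.3 in hda9, 31.8 in sant-null and 125 in Col-0, a 5.13-fold difference between the mutants (4.86 to 5.42). AT2G47820 went the other way, with 34.0 RPKM in hda6, 71.2 in hda9, 118 in sant-null and 40.2 in Col-0, a centred ratio of -0.85 and a trend-removed one of -1.98. AT1G09050 had 30.3 RPKM in hda6 and 39.3 RPKM in hda9 (-0.17), and AT1G09040 6.41 RPKM in hda6 and 10.05 RPKM in hda9 (-0.38).

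Clock and warm-growth genes had 6 of 21 higher and 1 lower (median 0.18, and -0.02 without centring), beside 16.5% and 16.8% of all genes. Meristem genes had 3 of 23 and 1 (0.17, and -0.02 without centring), and senescence and autophagy genes 4 of 18 and 2 (-0.07, but 0.07 with the trend removed). Of 25 histone genes taken by name, 15 were long enough. Of these, 6 were higher and 3 lower (0.47, and 0.14 with the trend removed). Ribosomal protein genes, of mixed compartments, had 6 of 45 higher and 2 lower (0.04, and -0.15 without centring). On the centred scale none of 7 loci known to be controlled by DNA methylation passed 1.5-fold either way (-0.39), and 1 was lower with the trend removed. Among 20 genes of the DNA methylation machinery 1 was lower and none higher (-0.15), as among 12 histone acetyltransferase genes (0.01, but -0.05 with the trend removed).

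Gene length moved with the centred ratio and hardly with the trend-removed one. In the shortest decile 33.1% of genes were higher in hda6 and 19.5% lower, with a median of 0.25. In the longest decile 2.62% were higher and 18.1% lower, with a median of -0.22. The rank correlation across genes was -0.19 on the centred and -0.03 on the trend-removed scale. Genes within 3 Mb of a centromere had 13.3% higher and 19.7% lower, against 16.9% and 16.5% of 20648 genes on the arms. The median ratios near centromeres and on the arms were -0.06 and 0.01 on the centred scale. With the trend removed they were -0.00049 and 0.0017. Long non-coding RNA genes (308) had 96 higher and 30 lower, a median of 0.30, and 0.01 with the trend removed.

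The authors also compared each mutant with Col-0 at islands, stretches of enriched signal. Only islands of chromosomes 3 and 5 were used, because the islands listed for chromosomes 1, 2 and 4 also followed genes of other chromosomes. In the authors' deposited table for hda6, the rank correlation across genes of RPKM with the share of the gene covered by islands of another chromosome reached 0.31 for those, and 0.04 for chromosomes 3 and 5. Both comparisons share Col-0. The library totals behind the island values, 34.2 M in hda6 and 73.7 M in hda9, exceed the depths recovered from the gene tables, and the 2 kinds of table do not count the same reads. At ERF4 the gene table gave 4086 reads in hda6, while the authors' deposited table gave 2399 on the island that spans the gene. In the authors' deposited table for hda6, 5998 islands held 8.17% of the hda6 library over 5.30 Mb, and 8.89% of the Col-0 library. In the authors' deposited table for hda9, 5246 islands held 5.12% of the hda9 library over 4.64 Mb, and 8.25% of the Col-0 library. The median fold over Col-0 was 0.952 in the authors' deposited table for hda6 and 0.574 in the authors' deposited table for hda9. The share of reads in islands thus moved with the narrower range in hda9, and its part in the gene ratios was not tested.

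At single genes the authors' deposited tables gave the island at ERF4 a fold over Col-0 of 0.928 in hda6 and 0.400 in hda9. For SYP122 the authors' deposited tables gave 1.14 in hda6 and 0.424 in hda9. The island at EXT13 appeared only in the authors' deposited table for hda9, with a fold of 2.77 (718 reads in hda9 and 125 in Col-0).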

How the data were processed

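Khib ChIP-seq was analysed from deposited tables. The authors deposited RPKM values per gene, 1 table per genotype, per the file headers. The build was TAIR10 and the tools were Bowtie2 2.2.5, bedtools, CASAVA and SICER 1.0.3, per the submitters' processing notes. The way replicate libraries were merged, and any use of the inputs, is a point not given in the sources used here. Depths were recovered from RPKM times gene length, which came out whole (tolerance 0.01 reads) at 100% of values. These reads gave conditional exact (Clopper-Pearson) 95% intervals, which cover counting error only, since ChIP reads are not independent molecules. The authors deposited island read counts, RPM values, folds (a ratio of RPM) and p-values with FDR, per the file headers; islands overlapping a gene by at least 1 bp were used.

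The log2 ratio of (RPKM + 1), hda6 over hda9, was centred on its median. It understates differences of low genes. The trend on level was a running median of 1001 genes (at least 251 at the ends, where it is flat). With 1 value per genotype there was no test, and a gene is called at 1.5-fold. The 22 lists and the members were chosen with earlier results of these data known. Named genes were protein-coding, with a symbol and at least 5 RPKM in either mutant: the 12 highest and 12 lowest ratios, 6 each way with the trend removed, 2 each way per list (other list members are given as examples), the deacetylase list and 2 on each side of the threshold. Genes outside this rule, such as AT1G55050 as the highest of all, were named after their values were seen. Names came from RefSeq (TAIR10.1), names only. Promoter sequence was not used here, so no motif was searched. On data simulated for hda6 against hda9 (23225 genes), 100 of 100 doubled and 97 of 100 halved genes were recovered and 0 unchanged genes were called. That run shows only that planted changes are found. It gives no error rate for the calls on the real genes, whose spread between replicates is not known. Analyses used Python 3.11.15, numpy 2.4.6, pandas 2.3.3 and scipy 1.17.1. The alternatives were 12 settings of pseudocount, filters, scaling, depth and threshold.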

Additional observations from a re-analysis of the deposited data

How the results depend on the processing

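The counts of genes higher and lower in hda6 (3782 and 3839) stayed within 1.5 times with a pseudocount of 0.1 RPKM, no RPKM filter, a length of at least 500 bp, protein-coding genes only, and hda9 thinned to the hda6 depth (3840 and 3870). They moved to 2194 and 825 with a pseudocount of 5 RPKM, to 1912 and 1974 at a length of at least 2000 bp, to 2142 and 5990 without centring, to 1843 and 1612 after quantile normalization, to 1592 and 1082 with the trend removed, and to 920 and 1116 at 2-fold. With at least 3 RPKM in both mutants 2390 genes were lower. Higher calls were 49.63% of all calls in the main setting, 26.34% without centring, 72.67% with a pseudocount of 5 RPKM and 59.54% with the trend removed. Fewer genes enter at the stricter length and RPKM filters, a higher pseudocount shrinks low genes, and a 2-fold line is stricter. Leaving out centring keeps the median log2 ratio of -0.20. The cause of the other moves was not tested. Among the genes named by rule or as extremes and past 1.5-fold on the centred scale, after quantile normalization TIL (-0.0683), GolS1 (-0.0729), MYC2 (-0.1402) and LOX3 (-0.0576) changed sign. Among the same genes, with the trend removed PRR9 (0.0677), TIL (-0.14), GolS1 (-0.14), AT5G60390 (-0.0061), MYC2 (-0.0245), LOX3 (-0.0593), FUS3 (0.0139), SRT1 (0.0304), PHL1 (0.0379), AT3G41762 (-0.30), AT3G41768 (-0.42), AT2G01008 (-0.27) and AT2G16586 (-0.43) did. Of the examples outside that rule HSC70-1 (-0.22) did too. No paired analysis was possible because each genotype has a single column of values, and so the replicate block was not run and no replicate could be left out. Depth limits the lowest hda6 genes most, which rest on as few as 17 reads.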

Other observations

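Gene families of at least 20 members, formed from the letters of their symbols after the values were seen, numbered 47. ERF transcription factor genes of the ethylene response had 14 of 21 members higher in hda6 and 1 lower (median centred ratio 0.95, trend removed 0.10), beside 16.5% and 16.8% of all genes. LBD genes, which act at organ boundaries, had 15 of 22 higher and 1 lower (0.70 and 0.25), EXPA expansins of the cell wall 11 of 23 and none (0.56 and 0.19), and UGT glycosyltransferases 25 of 58 and 1 (0.54, but -0.12 with the trend removed). WRKY transcription factor genes had 16 of 64 higher and 5 lower on the centred scale and 10 higher and none lower with the trend removed, where all genes had 6.96% and 4.73%. On the other side, RLP receptor-like protein genes had 1 of 49 higher and 21 lower, with medians of 5.68 RPKM in hda6 and 9.46 RPKM in hda9 (-0.47, and -0.32 with the trend removed). BGLU beta-glucosidase genes had 12 of 39 lower and none higher on the centred scale, and 14 higher and 1 lower with the trend removed, against the same shares of all genes.

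Neighbouring genes were weakly alike: over 22874 pairs of genes adjacent in the list, the rank correlation of the centred ratio was 0.15, and 0.01 at 20 genes apart. Runs of 8 adjacent genes lower in hda6 lay on chromosome 3 from 21863348 to 21891944 (ABCC10 to AT3G59210, 1.40 to 4.09 RPKM in hda6 and 5.30 to 9.55 in hda9), on chromosome 2 from 10480515 to 10520684 and on chromosome 1 from 24183949 to 24225815. A run of 7 higher genes lay on chromosome 4 from 18063166 to 18080228 (16.8 to 27.7 RPKM in hda6 and 10.3 to 14.4 in hda9). Trend-removed medians were -0.55, -0.35 and -0.48 for the lower runs in this order and 0.25 for the higher run, all within 1.5-fold.

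The stretch of chromosome 2 between 3.2 and 3.5 Mb holds a copy of mitochondrial DNA, and reads of both sources cannot be told apart. Its 37 genes had medians of 43.2 RPKM in hda6, 25.4 in hda9, 47.0 in sant-null and 31.2 in Col-0, with 23 higher in hda6, none lower and a trend-removed median of 0.02. Some genes of very high value were picked, after the values were seen, for low trend-removed ratios. AT1G40104 had 169 RPKM in hda6 and 699 RPKM in hda9, and AT2G07981 169 RPKM in hda6 and 610 RPKM in hda9. AT2G08986 had 389 RPKM in hda6 and 1372 RPKM in hda9. The genes with the highest RPKM in hda6 all went the other way. AT3G41762 had 10610 RPKM in hda6 and 6793 RPKM in hda9, and the ribosomal RNA gene AT3G41768 5750 RPKM in hda6 and 3983 RPKM in hda9. AT2G01008 had 3662 RPKM in hda6 and 2300 RPKM in hda9, and AT2G16586 774 RPKM in hda6 and 541 RPKM in hda9. The number of copies behind these values was not tested.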
